A study of Homo sapiens with 18 samples.

Results

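The 10 genes described here encode proteins of chromatin, RNA binding and transcription whose messenger RNAs are known targets of the let-7 microRNAs. They are HMGA1, HMGA2, IGF2BP1, IGF2BP2, IGF2BP3, ARID3A, ARID3B, PLAGL1, PLAGL2 and E2F6, taken by symbol from the 61806 genes of the deposited table, and all 10 were listed. The table held 18 libraries of poly(A)-enriched RNA from DLD-1 and LoVo, a pair of human colorectal cancer cell lines, in 6 groups of 3. Each line was labelled as LIN28B cells given 5 µM alpelisib, as LIN28B cells with no treatment listed, and as empty-vector (EV) cells. Alpelisib inhibits the alpha isoform of PI3K, the kinase that passes growth factor signals to AKT. How LIN28B and the empty vector were delivered, whether the cells were clones, how long alpelisib was given and what the untreated cells received are not stated in the labels. No label ties the libraries of a group to separate cultures, so p-values reflect variation among libraries that may be technical.

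let-7 microRNAs pair through their seed, bases 2 to 8, with matching stretches in 3′ untranslated regions (UTRs) and lower the level or the translation of those messengers. LIN28B binds let-7 precursors through a GGAG motif in the loop between the arms, and stops them from maturing. HMGA2, IGF2BP1 and IGF2BP3 are called oncofetal because they are abundant in the embryo, fall as let-7 accumulates, and return in many tumours. Poly(A) libraries do not measure mature let-7.

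The 9 mature sequences below are the let-7 family of the 5′ arm, from RefSeq on GRCh38.p14. They are shown because every site described later is read against them, and capitals mark the seed, GAGGUAG, which all 9 share.
let-7a-5p: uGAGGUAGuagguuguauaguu
let-7b-5p: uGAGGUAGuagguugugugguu
let-7c-5p: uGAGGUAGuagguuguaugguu
let-7d-5p: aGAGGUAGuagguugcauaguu
let-7e-5p: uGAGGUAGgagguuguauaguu
let-7f-5p: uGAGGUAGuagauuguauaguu
let-7g-5p: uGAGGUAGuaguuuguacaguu
let-7i-5p: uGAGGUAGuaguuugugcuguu
miR-98-5p: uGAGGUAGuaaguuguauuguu
Of the 12 hairpins that give these sequences, 9 held GGAG between the arms, and MIRLET7A3, MIRLET7B and MIR98 did not. For MIRLET7F2 no 3′ arm was listed, so everything after its 5′ arm was searched.

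The seed was searched for in the 3′ UTR of each gene's principal transcript in GENCODE 29 (GRCh38), on the transcript strand only, in 3 forms that exclude each other. An 8mer is CTACCTCA, a 7mer-m8 is CTACCTC with no A after it, and a 7mer-A1 is TACCTCA with no C before it. HMGA2 (ENSG00000149948; chromosome 12, 65824131 to 65966295, plus strand) held 7 sites in a 3′ UTR of 3003 bases. It was 1 of 2 genes with at least 7 sites among the 19124 genes with a 3′ UTR (0.0105%), and the 1 gene with that many among the 1886 whose 3′ UTR was within 20% of its length. This rank rests on the principal transcript, a choice made after the longest 3′ UTR of HMGA2 was seen to hold 0 sites. Its sites are shown because HMGA2 had the largest LIN28B difference of the 9 tested genes in DLD-1 cells, and capitals mark the seed match at the end of each window.
HMGA2, 8mer, chr12:65963293-65963320, plus strand: ggggcgccaacgttcgatttCTACCTCA
HMGA2, 7mer-A1, chr12:65964376-65964405, plus strand: ccatgaaagacctgaataccactTACCTCA
HMGA2, 7mer-m8, chr12:65964525-65964554, plus strand: caatatatccccactactcaataCTACCTC
HMGA2, 7mer-A1, chr12:65964888-65964917, plus strand: ttaaatattaccctccaagtctgTACCTCA
HMGA2, 7mer-m8, chr12:65964937-65964966, plus strand: tggactaattgacttgcaaagacCTACCTC
HMGA2, 7mer-m8, chr12:65965790-65965819, plus strand: tgttgtacaatcaaaacacactaCTACCTC
HMGA2, 7mer-A1, chr12:65965810-65965839, plus strand: ctactacctcttaagtcccagtaTACCTCA
The other 6 coding HMGA2 transcripts, among them 1 with a 3′ UTR of 7421 bases, held 0 sites, and gene-level TPM do not tell the transcripts apart.

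IGF2BP2 (ENSG00000073792; chromosome 3, 185643739 to 185825056, minus strand) held 2 sites in a 3′ UTR of 1792 bases, in windows that overlap. As many were found in 1.51% of the 2316 genes with a 3′ UTR within 20% of that length. Both are shown because IGF2BP2 was the other gene called in DLD-1 cells.
IGF2BP2, 8mer, chr3:185644220-185644249, minus strand: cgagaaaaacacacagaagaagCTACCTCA
IGF2BP2, 7mer-A1, chr3:185644205-185644234, minus strand: gaagaagctacctcaggtgttttTACCTCA
IGF2BP1 (chromosome 17, 48997412 to 49055650, plus strand) and ARID3B (chromosome 15, 74541177 to 74598131, plus strand) held 5 sites each, and ARID3A (chromosome 19, 925781 to 975934, plus strand) held 3. One site each lay in HMGA1 (chromosome 6, 34236873 to 34246231, plus strand), IGF2BP3 (chromosome 7, 23310209 to 23470467, minus strand), PLAGL2 (chromosome 20, 32192503 to 32207791, minus strand) and E2F6 (chromosome 2, 11444375 to 11466177, minus strand). PLAGL1 (chromosome 6, 143940300 to 144064599, minus strand) held 0 in each of its 13 coding transcripts, which says only that these letters are not in those UTRs. At least 1 site was found in 13.9% of all genes with a 3′ UTR, at least 3 in 0.507% and at least 5 in 0.0523%. A match is a description of letters, not a measured binding site.

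**Figure D1:**
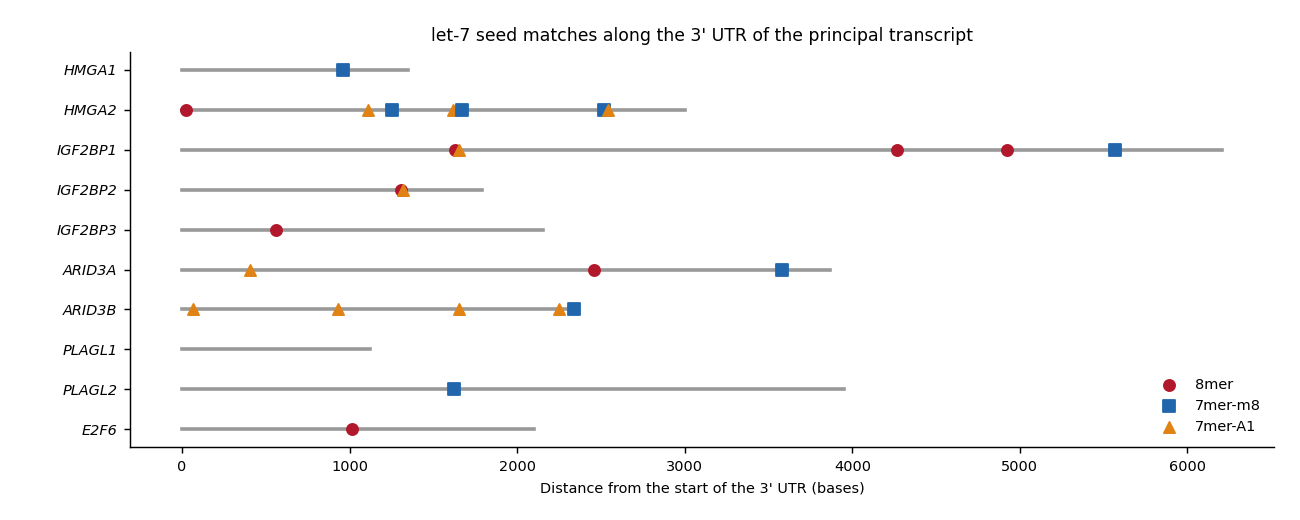
let-7 seed matches in the 3′ UTRs of the 10 genes. The horizontal axis is the distance from the start of the 3′ UTR in bases, each grey line is 1 gene's UTR drawn to length, and symbols mark the 3 forms of site. HMGA2 carries 7 matches and PLAGL1 carries 0.

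The values are TPM, length-scaled shares of each library, so levels of different genes can be set side by side, but sequencing depth is unknown and no counting error can be given. In bulk RNA, fewer cells expressing a gene and less RNA per cell cannot be told apart. LIN28B, the labelled transgene, averaged 143 ± 5.68 TPM in DLD-1 LIN28B cells with alpelisib, 462 ± 46.3 in DLD-1 LIN28B cells and 1.76 ± 0.853 in DLD-1 EV cells (SD, n = 3). Under the LoVo label the same groups averaged 154 ± 7.14, 687 ± 16.6 and 4.15 ± 0.668 TPM. LIN28A stayed under 0.1 TPM on average in every group. Across genes, Pearson's r of the LoVo-labelled LIN28B libraries was 0.964 to 0.968 with DLD-1 LIN28B libraries and 0.890 to 0.918 with LoVo EV libraries, with all libraries sharing 1 scale and genes not being independent replicates. For that reason the DLD-1 comparisons come first, and every direction under the LoVo label rests on labels that these correlations go against. Colon epithelial markers were present in all 6 groups, with at least 7 of 8 markers at a mean of 1 TPM or more. Of 5 fibroblast markers 2 averaged 1 TPM or more in 5 groups and 1 in LoVo EV, where their sum was 9.52 to 14.9 TPM, and COL1A2 was at 0 in all 6 groups. Of 4 blood cell markers 1 reached that level in 5 groups, with a sum of up to 15.1 TPM in LoVo EV. Of 3 endothelial markers 0 did, and CDH5 was at 0 in 5 groups. Their part in the results was not tested.

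LIN28B cells of the DLD-1 line carried more HMGA2 and more IGF2BP2 than EV cells, and no other of the 9 genes that could be tested was called. HMGA2 is an AT-hook protein that bends DNA and remodels chromatin in embryonic and tumour cells. It measured 37.6, 34.1 and 30.4 TPM in the DLD-1 LIN28B libraries, against 18.1, 19.5 and 17.5 TPM in the DLD-1 EV libraries. Every LIN28B library lay above every EV library, with no overlap. The ratio of means was 1.85, and the difference on the log2(TPM + 1) scale was 0.85 ± 0.11 (SE, n = 3 each, limma adjusted p = 0.00089). IGF2BP2 binds messenger RNAs at the ribosome and in granules, and stabilises many of them. It measured 85.6, 83.7 and 78.4 TPM in LIN28B libraries, against 62.7, 61.3 and 58.8 TPM in EV libraries. Here too the groups did not overlap, the ratio was 1.35, and the log2 difference was 0.43 ± 0.07 (SE, limma adjusted p = 0.00531). Of all 18537 genes tested, 2.53% were called in this comparison and 1.21% were called higher, and 2 of the 9 tested members were called, both higher. IGF2BP1 did not reach the filter of 1 TPM in at least 3 libraries, so 9 genes are not the whole list.

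The paralogues of HMGA2 and IGF2BP2 were not called in the same cells. HMGA1, the more widely expressed AT-hook protein, was far more abundant, at 457, 436 and 391 TPM in DLD-1 LIN28B against 368, 391 and 339 TPM in DLD-1 EV. The lowest LIN28B library stood just above the highest EV library, and the log2 difference was 0.22 ± 0.14 (SE, limma adjusted p = 0.533). IGF2BP3, the family member most closely tied to fetal tissue and tumours, measured 14.9, 11.8 and 13.4 TPM in LIN28B libraries against 12.2, 16.0 and 9.29 TPM in EV libraries. These groups overlapped widely, and the 95% interval of the log2 difference ran from -0.43 to 0.66. IGF2BP1 was close to absent, at 0.0419 ± 0.0642 TPM in LIN28B and 0.109 ± 0.134 TPM in EV (SD, n = 3 each), with 1 LIN28B library listed at 0.

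ARID3A and ARID3B bind AT-rich DNA and regulate transcription in development. ARID3A measured 41.4, 40.1 and 42.7 TPM in DLD-1 LIN28B and 30.3, 38.4 and 35.2 TPM in DLD-1 EV. ARID3B was low, at 3.49 ± 0.607 TPM in LIN28B and 2.48 ± 0.348 TPM in EV (SD, n = 3 each). Neither difference was called, at log2 0.26 ± 0.11 and 0.36 ± 0.15 (SE, limma adjusted p = 0.306 and 0.272). PLAGL2, a zinc finger activator that promotes growth of intestinal cells, measured 10.1, 9.33 and 9.58 TPM in LIN28B libraries, against 7.62, 7.52 and 7.19 TPM in EV libraries. Those groups did not overlap, yet the log2 difference of 0.34 ± 0.13 was not called (SE, limma adjusted p = 0.208). PLAGL1, an imprinted relative that restrains growth, and E2F6, a repressor that recruits a Polycomb complex, had log2 differences of -0.06 ± 0.09 and 0.01 ± 0.28 (SE, limma adjusted p = 0.867 and 1). In 5 of the 9 tested members the groups did not overlap, against 22.8% of all genes. The plot of TPM by library shows these values beside the other groups.

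**Figure D2:**
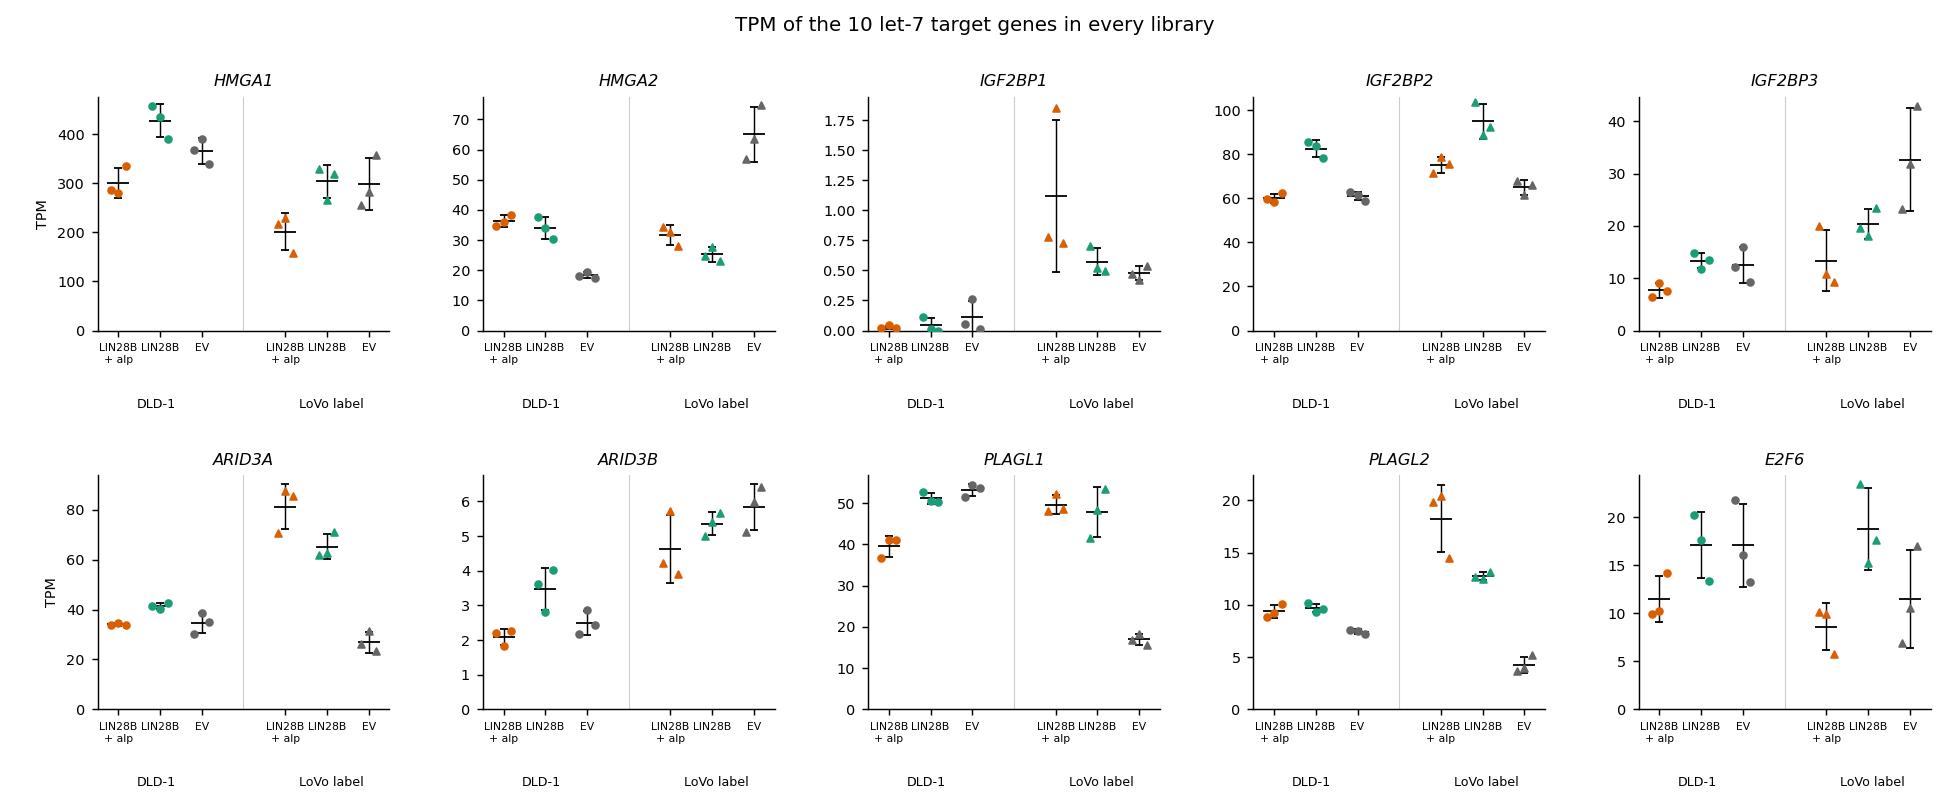
TPM of each gene in all 18 libraries. Points are libraries in replicate order, horizontal bars are group means and whiskers are 1 SD (n = 3), with the DLD-1 groups as circles on the left of each panel and the LoVo-labelled groups as triangles on the right, and alp means alpelisib. HMGA2 in DLD-1 is at 30.4 TPM or more in all 6 LIN28B libraries and at 19.5 TPM or less in EV, and each panel has its own scale.

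Alpelisib lowered 5 of the 9 tested members in DLD-1 LIN28B cells and raised 0, while HMGA2 was not called. In this comparison 31% of all genes were called, 9.05% higher and 21.9% lower. LIN28B itself was lower too, with a ratio of means of 0.31. HMGA2 measured 34.7, 35.9 and 38.5 TPM with alpelisib, against 37.6, 34.1 and 30.4 TPM without. The groups overlapped, and the 95% interval of the log2 difference ran from -0.14 to 0.33 around 0.10 (limma adjusted p = 0.555). IGF2BP2 measured 59.5, 58.2 and 62.2 TPM with alpelisib, against 85.6, 83.7 and 78.4 TPM without. Every treated library lay below every untreated one, and the log2 difference was -0.45 ± 0.07 (SE, limma adjusted p = 0.000346).

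HMGA1, IGF2BP3, ARID3B and PLAGL1 were the other members called lower with alpelisib in DLD-1 LIN28B cells. HMGA1 measured 287, 280 and 335 TPM with alpelisib and 457, 436 and 391 TPM without, a log2 difference of -0.51 ± 0.14 (SE, limma adjusted p = 0.0125). PLAGL1 measured 36.7, 41.2 and 41.0 TPM with alpelisib and 52.6, 50.4 and 50.4 TPM without, a log2 difference of -0.36 ± 0.09 (SE, limma adjusted p = 0.00641). The treated and untreated libraries did not overlap in either gene. IGF2BP3 averaged 7.67 ± 1.38 TPM with alpelisib and 13.4 ± 1.51 TPM without, and ARID3B averaged 2.09 ± 0.238 and 3.49 ± 0.607 TPM (SD, n = 3 each). Their log2 differences were -0.74 ± 0.26 and -0.53 ± 0.15 (SE, limma adjusted p = 0.0384 and 0.0138). ARID3A, PLAGL2 and E2F6 were not called, at -0.27 ± 0.11, -0.04 ± 0.13 and -0.54 ± 0.28 (SE, limma adjusted p = 0.0751, 0.843 and 0.159). In 6 of the 9 tested members the groups did not overlap, against 47.2% of all genes.

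The called losses in DLD-1 with alpelisib depended in part on single libraries and on the scaling. Without DLD-1 LIN28B replicate 1 or replicate 3 the count fell to 3 members. HMGA1 lost its call without DLD-1 LIN28B replicate 1 (limma adjusted p = 0.0524), and ARID3B without LIN28B replicate 3 (0.0622) or alpelisib replicate 2 (0.0565). IGF2BP3 lost its call without any of 5 of the 6 libraries in turn, with limma adjusted p up to 0.137. Median-of-ratios scaling moved the median of all genes in this comparison by 0.11 on the log2 scale and the split of called genes from 1677 higher and 4067 lower under TPM to 2686 and 2819. Under it HMGA2 was called higher at 0.25 (limma adjusted p = 0.0306), while PLAGL1 and IGF2BP3 were no longer called (0.134 and 0.0674). Mitochondrially encoded genes held 10.6 to 15.8% of TPM with alpelisib and 10.3 to 11.1% without, and leaving those genes out again gave 5 members called lower.

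Set against EV, DLD-1 LIN28B cells with alpelisib had a higher HMGA2 level, while IGF2BP2 was not called. No EV libraries with alpelisib were listed, so vector and drug change together here and their effects cannot be told apart. Whether alpelisib changes these genes alike in EV cells was not tested. HMGA2 was 1.98-fold higher in the treated LIN28B libraries than in EV, a log2 difference of 0.95 ± 0.11 (SE, n = 3 each, limma adjusted p = 2.46e-05), with no overlap. IGF2BP2 differed by -0.02 ± 0.07, with a 95% interval from -0.18 to 0.13 (SE, limma adjusted p = 0.857), and its libraries overlapped. PLAGL1 was lower than in EV, at 39.6 ± 2.54 TPM in LIN28B with alpelisib and 53.2 ± 1.56 TPM in EV (SD, n = 3 each), by a log2 difference of -0.42 ± 0.09 (SE, limma adjusted p = 0.00252). HMGA1, IGF2BP3, ARID3A and ARID3B had log2 differences of -0.29, -0.62, -0.02 and -0.17, and PLAGL2 and E2F6 of 0.30 and -0.52, with limma adjusted p from 0.0788 to 0.935. HMGA2 and PLAGL1 were the 2 members called, 1 higher and 1 lower, where 29.9% of all genes were called, 9.71% higher and 20.2% lower. Under median-of-ratios scaling PLAGL2 was called higher as well, at 0.41 (limma adjusted p = 0.00789). It was also called higher without mitochondrially encoded genes. The groups did not overlap in 5 of the 9 tested members, against 44.9% of all genes. This comparison shares its LIN28B with alpelisib libraries and its EV libraries with those above. The plot of log2 differences sets LIN28B and alpelisib side by side for each tested member.

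**Figure D3:**
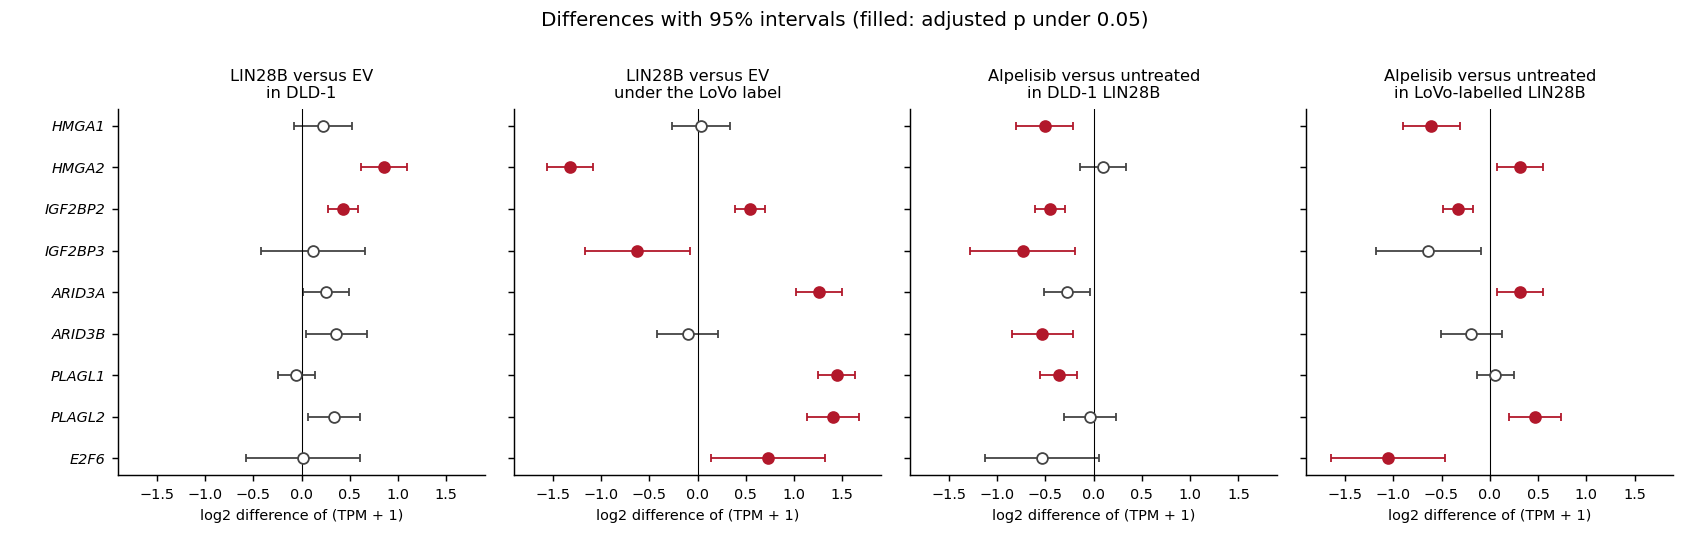
Log2 differences of (TPM + 1) for the 9 tested genes, with 95% intervals from limma over 18 libraries (n = 3 a group). Filled red points have an adjusted p under 0.05. In DLD-1 the HMGA2 interval lies above 0 for LIN28B versus EV and spans 0 for alpelisib, while the IGF2BP2 interval lies above 0 for LIN28B and below 0 for alpelisib.

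Under the LoVo label, 7 of the 9 tested members were called between LIN28B and EV libraries, 5 higher and 2 lower, where 56.8% of all genes were called, 40.3% higher and 16.5% lower. HMGA2 went the opposite way to DLD-1. It measured 24.9, 27.8 and 23.1 TPM in the LoVo-labelled LIN28B libraries, against 56.8, 63.7 and 74.7 TPM in LoVo EV, with no overlap. The ratio was 0.388 and the log2 difference -1.33 ± 0.11 (SE, n = 3 each, limma adjusted p = 5.57e-08). IGF2BP2 measured 104, 88.8 and 92.2 TPM in LIN28B libraries, against 67.8, 61.3 and 65.8 TPM in EV libraries, a log2 difference of 0.54 ± 0.07 (SE, limma adjusted p = 1.01e-05). These groups did not overlap either. IGF2BP3 was lower in LIN28B libraries, at 20.3 ± 2.85 TPM against 32.7 ± 9.80 TPM in EV (SD, n = 3 each), by -0.62 ± 0.26 (SE, limma adjusted p = 0.0477), with 1 pair of libraries out of order.

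ARID3A, PLAGL1 and PLAGL2 were higher in LoVo-labelled LIN28B than in LoVo EV libraries. ARID3A averaged 65.2 ± 5.08 TPM in LoVo-labelled LIN28B and 26.9 ± 4.16 TPM in LoVo EV, PLAGL1 47.8 ± 6.004 and 16.9 ± 1.24 TPM, and PLAGL2 12.8 ± 0.339 and 4.25 ± 0.792 TPM (SD, n = 3 each). Their log2 differences were 1.25, 1.44 and 1.40, and no libraries overlapped between the groups. E2F6 was also called higher, by 0.72 ± 0.28 (SE, limma adjusted p = 0.0359), at 23.5, 15.3 and 17.6 TPM in LIN28B against 6.91, 10.6 and 17.0 TPM in EV, which overlapped. HMGA1 and ARID3B were not called, at 0.03 ± 0.14 and -0.10 ± 0.15 (SE, limma adjusted p = 0.855 and 0.580). In 5 of the 9 tested members the groups did not overlap, against 59.2% of all genes.

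Mitochondrially encoded genes held 7.24 to 10.3% of TPM in LoVo-labelled LIN28B and 14.5 to 24.02% in LoVo EV. Median-of-ratios scaling moved the median of all genes by -0.30 in this comparison, and the split of called genes from 7463 higher and 3067 lower to 4750 and 5211. Relative to that shift HMGA1 reversed, to -0.35 (limma adjusted p = 0.0141), ARID3B was called lower at -0.43 (0.0154), and IGF2BP2 and E2F6 lost their calls, at 0.16 (0.0781) and 0.37 (0.227). HMGA2 and IGF2BP3 stayed called lower at -1.70 and -0.99, and ARID3A, PLAGL1 and PLAGL2 stayed called higher at 0.88, 1.07 and 1.07. The E2F6 call was lost without EV replicate 1 (limma adjusted p = 0.205), EV replicate 2 (0.0793), LIN28B replicate 1 (0.143) or LIN28B replicate 3 (0.0604). The IGF2BP3 call was lost without EV replicate 2 (0.094), EV replicate 3 (0.207), LIN28B replicate 1 (0.103) or LIN28B replicate 2 (0.132).

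Alpelisib under the LoVo label lowered HMGA1, IGF2BP2 and E2F6 and raised HMGA2, ARID3A and PLAGL2, 6 of the 9 tested members, where 39.7% of all genes were called, 15.1% higher and 24.6% lower. HMGA1 measured 216, 229 and 159 TPM with alpelisib and 329, 265 and 318 TPM without, and IGF2BP2 71.5, 78.6 and 75.3 TPM with and 104, 88.8 and 92.2 TPM without. Neither gene's groups overlapped, and their log2 differences were -0.60 ± 0.14 and -0.33 ± 0.07 (SE, limma adjusted p = 0.00298 and 0.00205). E2F6 averaged 8.63 ± 2.46 TPM with alpelisib and 18.8 ± 4.23 TPM without (SD, n = 3 each), a log2 difference of -1.05 ± 0.28 (SE, limma adjusted p = 0.00682). HMGA2 measured 34.4, 32.7 and 28.1 TPM with alpelisib, against 24.9, 27.8 and 23.1 TPM without, 0.32 ± 0.11 higher (SE, limma adjusted p = 0.0338). Its groups were separated by a narrow margin, and in 5 of the 9 tested members the groups did not overlap, against 50.1% of all genes. PLAGL2 was 0.47 ± 0.13 and ARID3A 0.31 ± 0.11 higher (SE, limma adjusted p = 0.00785 and 0.0371). IGF2BP3, ARID3B and PLAGL1 were not called, at -0.64 ± 0.26, -0.19 ± 0.15 and 0.06 ± 0.09 (SE, limma adjusted p = 0.0588, 0.343 and 0.643). The HMGA2 call was lost without LIN28B replicate 1 (0.0831), LIN28B replicate 3 (0.130), alpelisib replicate 1 (0.120) or alpelisib replicate 2 (0.0904). ARID3A lost its call without LIN28B replicate 1 (0.115), LIN28B replicate 2 (0.102), alpelisib replicate 2 (0.129) or alpelisib replicate 3 (0.119). Called genes numbered 2807 higher and 4557 lower, and 3699 and 3639 under median-of-ratios scaling, with the same 6 members called in the same directions.

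The alpelisib effect was compared between the labels directly. In that test 0 of the 9 members and 0.847% of all genes were called, and 3 members had an unadjusted p under 0.05 in limma: ARID3A, PLAGL1 and PLAGL2. IGF2BP2 differed by 0.12 on the log2 scale, LoVo label minus DLD-1, with a 95% interval from -0.10 to 0.34, and HMGA1 by -0.10, from -0.52 to 0.33. IGF2BP1, the one member below the filter, averaged 1.12 ± 0.635 TPM in LoVo-labelled LIN28B cells with alpelisib, 0.573 ± 0.113 without and 0.478 ± 0.0589 in LoVo EV (SD, n = 3). Its highest library, at 1.85 TPM, was alpelisib replicate 2, and the other 2 treated libraries measured 0.776 and 0.730 TPM. Without any filter, alpelisib versus untreated for IGF2BP1 was 0.39 ± 0.15 on the log2 scale and was not called (SE, limma adjusted p = 0.0916), while LIN28B with alpelisib versus EV was 0.48 ± 0.15 (SE, limma adjusted p = 0.0289).

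LoVo-labelled LIN28B cells with alpelisib differed from LoVo EV in 7 of the 9 tested members, 4 higher and 3 lower, where 46.8% of all genes were called, 32.2% higher and 14.7% lower. In 7 the groups did not overlap, against 48.8% of all genes. No LoVo EV libraries with alpelisib were listed either, so vector and drug change together in this comparison too. HMGA2 measured 31.7 ± 3.25 TPM in the treated LIN28B cells and 65.0 ± 9.04 TPM in EV (SD, n = 3 each), a log2 difference of -1.01 ± 0.11 (SE, limma adjusted p = 1.54e-06). HMGA1 and IGF2BP3 were lower too, by -0.57 and -1.26, and IGF2BP2, ARID3A, PLAGL1 and PLAGL2 were higher, by 0.21, 1.56, 1.499 and 1.87. ARID3B and E2F6 were not called, at -0.29 and -0.33 (limma adjusted p = 0.121 and 0.359). The IGF2BP2 value did not hold: under median-of-ratios scaling it was -0.039 (limma adjusted p = 0.699), and without mitochondrially encoded genes 0.027 (0.790). It was also lost without EV replicate 2 (0.115), alpelisib replicate 2 (0.103) or alpelisib replicate 3 (0.0566). Called genes numbered 5962 higher and 2719 lower, and 4089 and 4387 under that scaling.

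Between EV cells, LoVo and DLD-1 differed in 6 of the 9 tested members, 3 higher and 3 lower, where 55.5% of all genes were called, 17.3% higher and 38.2% lower. In 5 the groups did not overlap, against 57.8% of all genes. HMGA2 was 3.54-fold higher in LoVo EV than in DLD-1 EV, IGF2BP3 2.61-fold and ARID3B 2.35-fold, with log2 differences of 1.76, 1.31 and 0.97. PLAGL1, PLAGL2 and ARID3A were lower in LoVo EV, by -1.597, -0.70 and -0.36. HMGA1, IGF2BP2 and E2F6 were not called, at -0.30, 0.09 and -0.59 (limma adjusted p = 0.0788, 0.317 and 0.0854). IGF2BP1, without any filter, was 0.42 ± 0.15 higher in LoVo EV (SE, limma adjusted p = 0.0493), at 0.478 ± 0.0589 TPM against 0.109 ± 0.134 TPM in DLD-1 EV (SD, n = 3 each). ARID3A lost its call without LoVo EV replicate 3 (limma adjusted p = 0.0615) or DLD-1 EV replicate 2 (0.0706), and under median-of-ratios scaling, at -0.04 (0.829). That scaling moved the median of all genes by 0.25 and the called genes from 3212 higher and 7082 lower to 5207 and 4688, and IGF2BP2 was then called higher in LoVo EV, at 0.41 (limma adjusted p = 0.000182).

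The LoVo-labelled and DLD-1 LIN28B libraries differed in 4 of the 9 tested members, 2 higher and 2 lower, where 14% of all genes were called, 7.96% higher and 6.02% lower. In 7 the groups did not overlap, against 35.4% of all genes. ARID3A averaged 65.2 ± 5.08 TPM under the LoVo label and 41.4 ± 1.29 TPM in DLD-1, and ARID3B 5.35 ± 0.330 and 3.49 ± 0.607 TPM (SD, n = 3 each). HMGA2 averaged 25.3 ± 2.41 TPM under the LoVo label and 34.0 ± 3.58 TPM in DLD-1, and HMGA1 304 ± 34.1 and 428 ± 33.6 TPM. The log2 differences were 0.64, 0.51, -0.41 and -0.49. PLAGL1, which separated the EV groups by -1.597, differed by -0.10 ± 0.09 here (SE, limma adjusted p = 0.525). IGF2BP2, IGF2BP3, PLAGL2 and E2F6 were not called either, at 0.20, 0.57, 0.365 and 0.12 (limma adjusted p = 0.0895, 0.166, 0.0697 and 0.836). IGF2BP1 measured 0.704, 0.517 and 0.499 TPM under the LoVo label, against 0.116, 0.00994 and 0 TPM in DLD-1, and was called higher without any filter, by 0.59 ± 0.15 (SE, limma adjusted p = 0.031). For IGF2BP1 the LoVo-labelled LIN28B libraries stood nearer to LoVo EV than to DLD-1 LIN28B. Leaving out 1 library at a time left 1 to 4 members called. The count was 2 without each of the 3 LoVo-labelled LIN28B libraries in turn and 1 without DLD-1 LIN28B replicate 1 or 2.

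Over all 6 groups, HMGA2 ran in the order LoVo EV (65.0 TPM), DLD-1 LIN28B with alpelisib (36.4), DLD-1 LIN28B (34.0), LoVo-labelled LIN28B with alpelisib (31.7), LoVo-labelled LIN28B (25.3) and DLD-1 EV (18.4). DLD-1 LIN28B overlapped both of its neighbours in that order, and the other neighbours did not overlap. IGF2BP2 ran in the order LoVo-labelled LIN28B (94.9 TPM), DLD-1 LIN28B (82.6), LoVo-labelled LIN28B with alpelisib (75.2), LoVo EV (65.0), DLD-1 EV (60.9) and DLD-1 LIN28B with alpelisib (60.0). DLD-1 LIN28B overlapped LoVo-labelled LIN28B with alpelisib, LoVo EV overlapped DLD-1 EV, and DLD-1 EV overlapped DLD-1 LIN28B with alpelisib, while the other neighbours in that order did not overlap. By the root mean square difference of centred group means on the log2 scale, over 6 groups and 14129 genes, the genes most like HMGA2 were KANSL1-AS1, SSTR5-AS1 and ARL10, at 0.129, 0.151 and 0.167. Those most like IGF2BP2 were CEP120, PSD3 and RUFY3, at 0.0277, 0.0491 and 0.0622, and those most like IGF2BP3 were WNK2, TTYH2 and FGFR4, at 0.122, 0.134 and 0.146. KANSL1-AS1, SSTR5-AS1 and ARL10 had group means of 0.556 to 3.47, 0.385 to 2.98 and 0.0269 to 2.20 TPM, far below HMGA2. TTYH2 was low too, at 0.252 to 3.15 TPM. The log2(TPM + 1) scale understates changes of such low genes, so their likeness holds on that scale only.

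Transcripts from the opposite strand matter for HMGA2, since whether the counting used strand was not given in the sources used here. RPSAP52 (chromosome 12, 65758020 to 65826997, minus strand) overlaps the start of HMGA2, and HMGA2-AS1 (chromosome 12, 65851340 to 65882167, minus strand) lies inside it. RPSAP52 measured 4.34, 3.84 and 3.40 TPM in DLD-1 LIN28B, against 2.88, 3.02 and 4.26 TPM in DLD-1 EV. The groups overlapped, and the log2 difference was 0.16 ± 0.23 (SE, limma adjusted p = 0.845). HMGA2-AS1 averaged 1.897 ± 0.561 TPM in DLD-1 LIN28B and 1.70 ± 0.265 TPM in DLD-1 EV (SD, n = 3 each), and was not called (limma adjusted p = 0.929).

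Under the LoVo label both fell together with HMGA2. RPSAP52 averaged 5.80 ± 0.600 TPM in LoVo-labelled LIN28B and 17.6 ± 4.94 TPM in LoVo EV, and HMGA2-AS1 2.05 ± 0.512 and 8.30 ± 0.805 TPM (SD, n = 3 each). Their log2 differences were -1.42 ± 0.23 and -1.62 ± 0.22 (SE, limma adjusted p = 6.08e-05 and 1.11e-05). HMGA2-AS1 was higher with alpelisib than without in DLD-1 LIN28B, by 0.64 ± 0.22, and in LoVo-labelled LIN28B, by 0.61 ± 0.22 (SE, limma adjusted p = 0.0393 and 0.0398), though 1 treated DLD-1 library, at 1.95 TPM, lay below the highest untreated one. At the other end of a member, the end of MALSU1 (chromosome 7, 23298739 to 23311729, plus strand) overlaps the 3′ end of IGF2BP3 from the opposite strand. MALSU1 averaged 61.1 ± 7.46 TPM in DLD-1 LIN28B and 54.0 ± 5.28 TPM in DLD-1 EV (SD, n = 3 each), and 49.5 ± 1.88 TPM in DLD-1 LIN28B with alpelisib. Neither of these DLD-1 differences was called (limma adjusted p = 0.665 and 0.130), though every alpelisib library lay below every untreated one. In LoVo-labelled LIN28B, MALSU1 was called lower with alpelisib, by -0.40 ± 0.14 (SE, limma adjusted p = 0.0325), and its libraries overlapped. How reads in the overlap of the 2 genes were assigned was not tested.

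**Figure D4:**
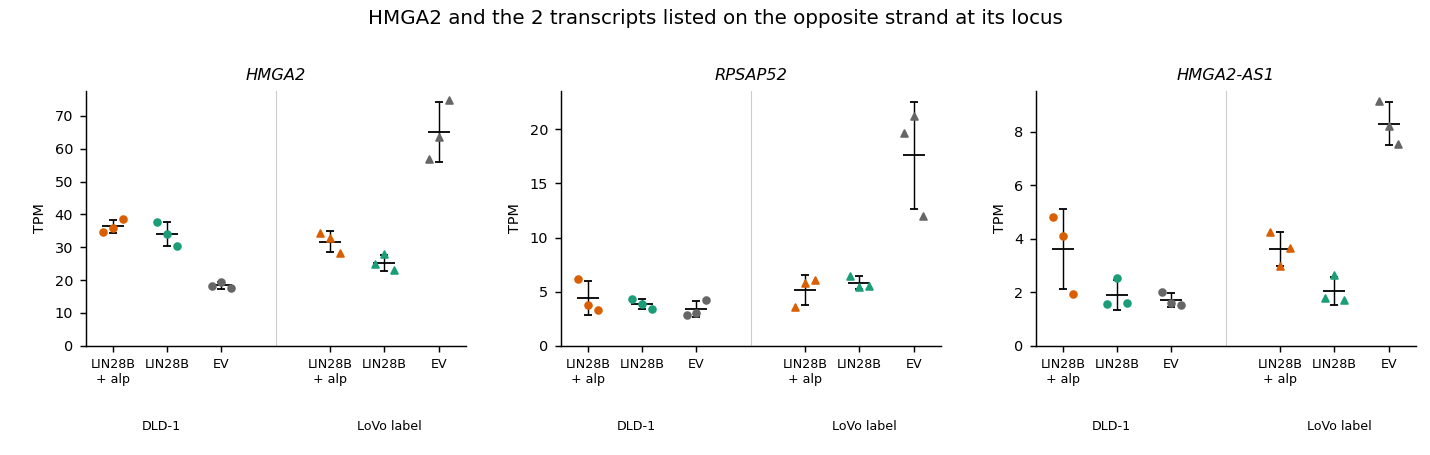
TPM of HMGA2 and of RPSAP52 and HMGA2-AS1, which are annotated on the opposite strand at its locus, in 18 libraries. Points are libraries, bars are means and whiskers are 1 SD (n = 3). HMGA2 alone separates LIN28B from EV libraries in DLD-1, and all 3 are highest in LoVo EV.

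The number of seed matches was set against the LIN28B difference in DLD-1 over every tested gene with a 3′ UTR. The median log2 difference was 0.01 in the 11121 genes with 0 sites, 0.04 in the 1707 with 1, 0.07 in the 288 with 2 and 0.07 in the 77 with 3 or more. The share called higher was 1.5% with 0 sites, 1.58% with 1, 2.43% with 2 and 5.19% with 3 or more, which is 4 of 77 genes. LIN28B, the overexpressed gene, and HMGA2 were 2 of those 4. Without LIN28B and the members, in a count added after these shares were seen, 1.5%, 1.59%, 2.09% and 2.74% were called higher, the last being 2 of 73 genes. Genes with more sites had longer 3′ UTRs, with medians of 832, 2433, 4254 and 7084 bases from 0 sites to 3 or more. Among genes with a 3′ UTR of 2000 bases or more, the shares called higher were 0.873%, 1.01%, 2.12% and 4.17%, and without LIN28B and the members 0.873%, 1.01%, 2.12% and 1.47%, the last being 1 of 68 genes. Of the 9 tested members 1 had 0 sites, 4 had 1, 1 had 2 and 3 had 3 or more. Genes are not independent replicates, so these shares are descriptions.

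HMGA2 and LIN28B were called higher among the tested genes with at least 5 sites in DLD-1 LIN28B cells, and LIN28B was the gene overexpressed. ARID3B and NR6A1, with 5 sites each, and HEMK1 and ONECUT2, with 6 each, were not called, with log2 differences of 0.36, 0.27, -0.20 and 0.07. Under alpelisib in DLD-1 the share called lower was 27.7% in genes with 0 sites and 36.4% in genes with 3 or more. In genes with a 3′ UTR of 2000 bases or more it was 41.6% and 37.5%.

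A wider list of 50 other let-7 targets was read beside the members, 44 of them tested. In DLD-1 LIN28B cells 7 were called higher and 0 lower against EV, with a median log2 difference of 0.24 beside 0.02 for all genes, of which 1.21% were called higher and 1.32% lower. LIN28B itself is on that list. E2F2, an activator of replication genes, averaged 5.35 ± 0.751 TPM in LIN28B and 2.47 ± 0.236 TPM in EV, DTX2, a ubiquitin ligase of the Notch pathway, 61.7 ± 3.51 and 45.7 ± 2.65 TPM, and E2F5 16.6 ± 1.76 and 10.54 ± 1.13 TPM (SD, n = 3 each). Their limma adjusted p were 0.00345, 0.0142 and 0.0189. With alpelisib 2 were called higher and 20 lower, with a median of -0.32 beside -0.09, where 31% of all genes were called, 9.05% higher and 21.9% lower. PPP1R15B, a regulatory subunit of a phosphatase, averaged 16.9 ± 0.457 TPM with alpelisib and 32.3 ± 2.13 TPM without, and YOD1, a deubiquitinase, 5.55 ± 0.402 and 11.2 ± 0.780 TPM. EDN1, the endothelin-1 precursor, went the other way, at 5.61 ± 0.724 TPM with alpelisib and 0.898 ± 0.449 TPM without. Under the LoVo label 30 were higher and 4 lower for LIN28B, where 40.3% of all genes were higher and 16.5% lower, a split that median-of-ratios scaling turned to 4750 and 5211 genes. There 5 were higher and 19 lower for alpelisib, where 15.1% of all genes were higher and 24.6% lower. These shares of all genes also apply to the LoVo counts of the other lists.

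Relatives of the members gave 13 tested genes of 14. In DLD-1 LIN28B cells 5 were called higher and 0 lower, among them E2F2 and E2F5, which are also on the target list. Of all genes 1.21% were called higher and 1.32% lower there. The median log2 difference was 0.25 in the tested relatives beside 0.02 for all genes. HMGN2 and HMGB1, abundant chromatin proteins outside the AT-hook family, averaged 446 ± 18.6 and 817 ± 26.3 TPM in LIN28B, against 361 ± 12.5 and 674 ± 27.0 TPM in EV (SD, n = 3 each), with limma adjusted p of 0.0251 and 0.0321. With alpelisib HMGN2 was higher, at 577 ± 6.16 TPM, while HMGB1, at 719 ± 28.3 TPM, and E2F5, at 10.2 ± 0.318 TPM, were lower than in untreated LIN28B cells. Of the 13 relatives, 10 were higher and 0 lower for LIN28B under the LoVo label, and 0 higher and 8 lower for alpelisib.

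Messengers that IGF2BP proteins are known to bind gave 1 higher and 2 lower of 15 in DLD-1 LIN28B cells. Of all genes 1.21% were called higher and 1.32% lower in that comparison. HNRNPA2B1, an RNA-binding protein, was higher, at 729 ± 30.3 TPM in LIN28B and 602 ± 26.0 TPM in EV. CD24, a surface glycoprotein, was lower, at 159 ± 7.85 TPM in LIN28B and 234 ± 13.6 TPM in EV (SD, n = 3 each). With alpelisib 1 was higher and 9 lower, where 31% of all genes were called, 9.05% higher and 21.9% lower. The proliferation marker MKI67 averaged 26.1 ± 1.62 TPM with alpelisib and 56.9 ± 3.98 TPM without, and EIF4EBP1, a translation repressor, 72.7 ± 3.89 and 112 ± 13.1 TPM (SD, n = 3 each). How far proliferation moves with the members was not tested. Under the LoVo label this list gave 7 higher and 6 lower for LIN28B, and 2 higher and 8 lower for alpelisib.

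The partners of E2F6 in its Polycomb complex gave 0 calls by limma among 17 tested in DLD-1 LIN28B cells, with 1 gene at an unadjusted p under 0.05. In that comparison 2.53% of all genes were called. The median log2 difference was 0.13 in the partners beside 0.02 for all genes. With alpelisib 2 of the 17 were higher and 4 lower, shares near the 9.05% higher and 21.9% lower of all genes. Among the same 17, 9 were higher and 0 lower for LIN28B under the LoVo label, and 1 higher and 8 lower for alpelisib. In DLD-1, RYBP and RNF2, Polycomb subunits, averaged 12.02 ± 1.44 and 8.47 ± 3.01 TPM with alpelisib, against 23.5 ± 1.89 and 17.0 ± 3.11 TPM without. EHMT2, a histone H3 methyltransferase, and EPC1, a Polycomb-related protein, were higher, at 60.9 ± 1.32 and 18.2 ± 2.07 TPM with alpelisib, against 46.0 ± 2.71 and 13.2 ± 0.869 TPM without (SD, n = 3 each). Of 9 germline genes that E2F6 silences 1 passed the filter. It was not called in DLD-1. In LoVo-labelled LIN28B it was called higher with alpelisib, by 0.66 on the log2 scale, where 15.1% of all genes were called higher. A link of this 1 gene to the level of E2F6 was not tested. The imprinted genes around PLAGL1 gave 0 calls by limma of 7 in DLD-1 LIN28B cells, with 2 at an unadjusted p under 0.05, where 2.53% of all genes were called. Their median log2 difference was 0.13 there, beside 0.02 for all genes. With alpelisib CDKN1C, a cell cycle inhibitor, averaged 8.68 ± 1.20 TPM against 20.2 ± 0.526 TPM without, and GRB10, an insulin receptor adaptor, 5.57 ± 0.0723 and 12.5 ± 1.65 TPM, and these 2 of 7 were called lower. That count stands beside the 21.9% of all genes called lower. Of the 7, 3 were higher and 4 lower for LIN28B under the LoVo label, and 0 higher and 4 lower for alpelisib.

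The machinery that makes let-7 gave 0 calls by limma of 19 genes in DLD-1 LIN28B cells against EV, with 5 at an unadjusted p under 0.05, and the 5 tested let-7 host transcripts gave 0, with 0 at that level. Only 2.53% of all genes were called there, so 0 calls in lists this short do not set them apart. The median log2 difference was 0.13 in each of these 2 lists beside 0.02 for all genes. With alpelisib 1 of the 19 machinery genes was higher and 6 were lower, where 31% of all genes were called, 9.05% higher and 21.9% lower. Of the 19, 11 were higher and 1 lower for LIN28B under the LoVo label, and 1 higher and 5 lower for alpelisib. In DLD-1, AGO1, an Argonaute, averaged 5.67 ± 0.682 TPM with alpelisib and 11.3 ± 1.17 TPM without, XPO5, which exports precursors, 20.8 ± 1.05 and 28.6 ± 3.51 TPM, and TUT7, a uridylyltransferase, 8.33 ± 0.156 and 12.2 ± 1.596 TPM. DGCR8, the partner of Drosha, was higher, at 22.8 ± 1.82 TPM with alpelisib and 16.4 ± 1.65 TPM without (SD, n = 3 each). The host transcripts MIRLET7BHG and HUWE1 were lower, at 43.3 ± 2.62 and 58.1 ± 1.70 TPM with alpelisib, against 56.8 ± 2.12 and 78.4 ± 7.05 TPM without, and the 5 host transcripts gave 2 higher and 1 lower for LIN28B and 0 higher and 1 lower for alpelisib under the LoVo label. All list counts were adjusted over every gene tested.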

How the data were processed

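The authors deposited 1 table of TPM for 18 libraries of DLD-1 and LoVo cells. The submitters' processing notes name DESeq2, HTSeq, Picard, STAR 2.7.10 and the hg38 build with no order. The annotation release and any strand setting are not stated there. TPM fixes each library's total, so a change in abundant genes shifts all others, and keeps no depth. Of 61806 genes, those with at least 1 TPM in at least 3 libraries were kept (18537). log2(TPM + 1) was fitted with limma 3.58.1 in R 4.3.3 (mean-variance trend), 6 groups in 1 model with 12 residual degrees of freedom, two-sided, with Benjamini-Hochberg adjustment over all genes and calls at 0.05. This scale understates changes of low genes. Joins and figures used Python 3.11.15. The script was tested on simulated data. Seed matches came from GENCODE 29 (GRCh38). The principal transcript by APPRIS was used, a choice made after the longest UTR of HMGA2 was seen to hold 0 sites. Members and gene lists were chosen with earlier results of these data known. All tested members were named in each comparison between groups, and from each list up to 4 genes with the smallest adjusted p called in the DLD-1 comparisons; some of these genes are not reported here. MALSU1 was added after the loci were seen. Colon epithelium, fibroblast, endothelium and blood cell markers checked the tissue. Replicate numbers did not pair samples in any comparison. Alternatives were other scalings, filters, pseudocount, variance model, samples in the fit, replicate block and leaving out libraries.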

Additional observations from a re-analysis of the deposited data

Results flagged for a closer look

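In 4 members the LIN28B effect differed between the LoVo label and DLD-1 by a direct test of the difference in limma, in which 42.7% of all tested genes were called. The difference, LoVo label minus DLD-1 on the log2 scale, was -2.18 for HMGA2 (adjusted p = 3.12e-08), which was lower in LIN28B than in EV libraries under the LoVo label and higher in DLD-1. It was 1.00 for ARID3A (adjusted p = 0.00011), 1.496 for PLAGL1 (1.66e-07) and 1.06 for PLAGL2 (0.000189). These 3 rose under the LoVo label and were not called in DLD-1. The LoVo-labelled LIN28B libraries correlated more closely with DLD-1 LIN28B than with LoVo EV libraries, so a difference between cell lines and an effect of LIN28B cannot be told apart under that label. Under median-of-ratios scaling the same 4 genes were called, at -2.51, 0.66, 1.16 and 0.77.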

How the results depend on the processing

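The 90 member results were refitted under 1404 alternatives, of which 1303 kept direction and side of the threshold, 72 lost the call, 27 gained it and 2 reversed. The higher HMGA2 and IGF2BP2 of DLD-1 LIN28B cells held their calls in every alternative run. Both reversals came with median-of-ratios scaling: HMGA1 for LIN28B versus EV under the LoVo label became -0.35, and IGF2BP2 for LIN28B with alpelisib versus EV there became -0.039. Under that scaling 7 members in place of 4 differed in the LIN28B effect between labels; its called genes split 3544 higher and 3822 lower, against 5627 and 2296. For LIN28B with alpelisib versus EV in DLD-1 the split was 2657 and 3006, against 1800 and 3740. The cause was not tested. Leaving out 1 library at a time gave 3 to 4 members for alpelisib in DLD-1 (5 with all libraries), 1 to 4 for LoVo-labelled against DLD-1 LIN28B (4), 2 in each case for LIN28B in DLD-1 (2), and 5 to 6 for LIN28B under the LoVo label (7). All genes called for LIN28B in DLD-1 numbered 469, but 290 with no filter, 183 with the 2 groups alone (fewer samples in the fit) and 185 to 229 with 1 library left out. In LoVo-labelled LIN28B against DLD-1 LIN28B with no replicate block 4 members were called, and 4 with it. Replicate numbers did not pair the samples (the correlation of deviations passed 0.1 in no comparison for every pair, and at most 1 sample correlated best with its own number). With the replicate block as a term, calls went to 314 genes and 2 members for LIN28B in DLD-1, 6 members under the LoVo label and 4 for alpelisib in DLD-1, where IGF2BP3 was lost (adjusted p = 0.0673 and 0.0579). Depth is unknown, so what it limits for IGF2BP1 and ARID3B cannot be stated.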
